A study of Mus musculus with 9 samples.

Results

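The 10 genes described here encode the core of skeletal muscle excitation-contraction coupling: Cacna1s, Cacnb1, Cacng1 and Stac3 of the voltage sensor, Ryr1, Casq1, Trdn and Jsrp1 of the calcium release unit and its store, and the junctophilins Jph1 and Jph2. They were chosen by symbol, and each symbol matched 1 of the 55536 gene identifiers in the count files through the GENCODE M21 annotation. All 10 passed the filter on low counts.

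Bulk RNA sequencing was run on quadriceps muscle of C57BL/6 mice with volumetric muscle loss, an injury made by removing a piece of muscle surgically. The libraries fall into 5 labelled Il17ra-/- and 4 labelled wild type, and Il17ra encodes a receptor subunit for interleukin-17 cytokines. All 9 carry the age label 6 weeks, the material label Saline and a harvest label of 1 week after surgery, whereas the extraction protocol speaks of PCL and of 6 weeks after surgery, and the sources used here do not settle which holds. Triplicates of animals are named in the design text, against 5 and 4 labelled libraries, and neither the deleted exons nor a promoter or Cre is named. No label ties a library to 1 animal, so the p-values below measure the spread between libraries.

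In skeletal muscle, an action potential travels down the transverse tubules and moves the voltage sensor Cacna1s, which is coupled mechanically to Ryr1, the calcium release channel of the sarcoplasmic reticulum. Calcium that Casq1 holds inside the reticulum then leaves through Ryr1 and starts contraction. Junctophilins hold the tubule and the reticulum close together at the triad, where this coupling takes place.

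Libraries labelled Il17ra-/- held 35.2 to 46.4 M (mega) counts and libraries labelled wild type 31.3 to 37.6 M. Il17ra itself was higher in the libraries labelled Il17ra-/-, at 208 ± 43.2 CPM (counts scaled to library size with TMM factors; mean ± SD, n = 5), against 96.8 ± 19.7 CPM (n = 4) in libraries labelled wild type. Its log2 fold change was 1.11 (SE 0.17, adjusted p = 0.00208, edgeR's quasi-likelihood test), which goes against the label. Counts per gene do not show which exons the reads came from, so genotype could not be checked further, and every direction below is between labels. Wild type replicate 2 stood apart from the other libraries, at 78.8 on the first principal component (36.1% of the variance), where the other 8 lay between -30.2 and 7.28. As a check of the tissue label, the 11 fast fibre markers summed to 3369 to 4541 CPM in libraries labelled Il17ra-/- and 1320 to 3261 CPM in libraries labelled wild type. The 6 fibroblast markers summed to 38370 to 52380 CPM in libraries labelled Il17ra-/- and 45360 to 49870 CPM in libraries labelled wild type. Leukocyte markers were near 0: the 7 of them summed to 1.00 to 2.90 CPM in libraries labelled Il17ra-/- and 0.197 to 1.92 CPM in libraries labelled wild type. The 5 endothelial markers summed to 300.7 to 378.8 CPM in libraries labelled Il17ra-/- and 261.4 to 455.9 CPM in libraries labelled wild type. Most of that was Tek, at means of 294.5 and 294.8 CPM. Pecam1 averaged 1.34 and 2.38 CPM, and Vwf 1.66 and 3.07 CPM, in the same order of labels. Fibre markers were thus present in every library, but far below fibroblast markers and with almost no leukocyte signal, and whether the samples are whole quadriceps, as labelled, was not tested.

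On GRCm38 (1-based, GENCODE M21), Ryr1 (ENSMUSG00000030592.18) spans chr7:29003344-29125179 on the minus strand, with 109 merged exons. Cacna1s (ENSMUSG00000026407.17) spans chr1:136052750-136119822 on the plus strand with 45 merged exons. Counting did not use strand, and Cacna1s has the largest overlap with a gene on the opposite strand, Gm37759, over 20% of its exon length. Gm37759 had 0 counts in these libraries. For the other members with such a partner, the partner averaged at most 0.0385 CPM. Reads in shared exons can go uncounted for both genes, so these low values do not show that the overlaps left the members' counts unaffected. The promoter table held 5 of the 10 members (RefSeq, GRCm38.p6). Upstream sequence is shown for the pair whose label groups did not overlap, Ryr1 and Cacna1s, and for Jph2 and Casq1, whose groups did. Each line runs 5′ to 3′ on the gene's strand and is limited to bases outside GENCODE exons. Capitals mark matches to the E-box CANNTG, its subset CAGCTG, or the MCAT box CATTCC on either strand.
Ryr1, chr7:29125180-29125401, minus strand: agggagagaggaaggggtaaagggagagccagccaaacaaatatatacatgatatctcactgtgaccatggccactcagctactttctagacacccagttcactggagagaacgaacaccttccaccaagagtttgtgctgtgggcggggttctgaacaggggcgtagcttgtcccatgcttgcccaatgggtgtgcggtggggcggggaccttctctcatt
Cacna1s, chr1:136052561-136052749, plus strand: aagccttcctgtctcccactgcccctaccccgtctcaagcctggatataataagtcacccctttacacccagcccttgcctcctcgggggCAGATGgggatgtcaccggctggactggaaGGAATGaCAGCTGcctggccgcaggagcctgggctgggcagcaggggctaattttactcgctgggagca
Jph2, chr2:163397994-163398243, minus strand: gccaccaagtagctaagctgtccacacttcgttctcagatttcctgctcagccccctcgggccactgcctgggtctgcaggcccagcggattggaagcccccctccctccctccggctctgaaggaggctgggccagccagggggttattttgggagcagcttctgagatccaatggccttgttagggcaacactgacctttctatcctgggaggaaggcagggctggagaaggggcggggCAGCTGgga
Casq1, chr1:172219896-172220145, minus strand: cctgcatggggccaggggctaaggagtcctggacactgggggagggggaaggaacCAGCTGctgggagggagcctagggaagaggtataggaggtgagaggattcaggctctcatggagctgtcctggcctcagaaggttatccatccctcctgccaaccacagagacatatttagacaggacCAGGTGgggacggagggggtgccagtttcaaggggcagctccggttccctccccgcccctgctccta
Distances below count back from the RefSeq start at the end of each window of 250 bases, which can differ from the GENCODE start. For Cacna1s the whole window is chr1:136052561-136052810, which runs past the GENCODE start at 136052750. In it, Cacna1s held E-boxes whose first bases lie 160 and 123 bases upstream, the second of them CAGCTG, and an MCAT box at 130. Jph2 held CAGCTG at 9 bases upstream, or at 29 from its other RefSeq start. Casq1 held E-boxes at 195 and 67, the first of them CAGCTG. Cacnb1, whose groups also overlapped, is not shown. It held 1 CANNTG, at 27 bases upstream of 1 of its RefSeq starts, and no CAGCTG. Ryr1 held none of the motifs searched, which also included the MEF2 box and the CArG box. Among all 32851 windows of 250 bases in the table, 66.2% held CANNTG, 13% CAGCTG, 12.6% the MCAT box, 0.508% the MEF2 box and 1.47% the CArG box. These matches are descriptions of the letters in the windows only.

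Of the 10 genes, 1 passed the test across all genes, Ryr1, which was higher in libraries labelled Il17ra-/-, and none was lower (0 lower also at an unadjusted p under 0.05 and in DESeq2 and voom). Over the 16039 genes tested, 3.06% were called at an adjusted p under 0.05, and 1.35% were called higher. All 10 members had a positive log2 fold change (labelled Il17ra-/- minus labelled wild type), with a median of 0.52, where 49.7% of all tested genes were positive and their median was -0.00273. The libraries of both labels did not overlap for 2 members, Ryr1 and Cacna1s, both higher in the libraries labelled Il17ra-/-, a pattern seen in 4.63% of all tested genes. In bulk samples, a larger share of fibre RNA and more RNA of a gene per fibre cannot be told apart.

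**Figure D1:**
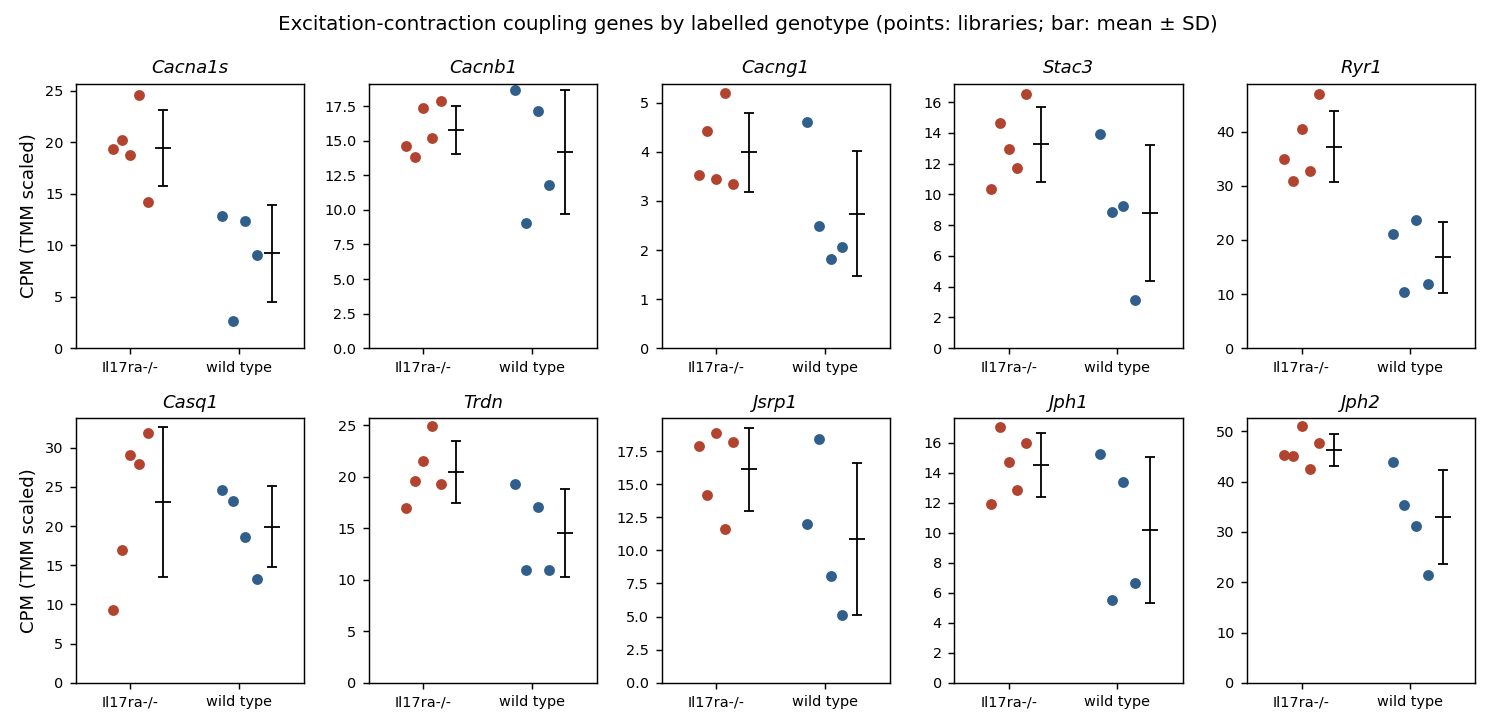
CPM (TMM scaled, linear axis from 0) of the 10 excitation-contraction coupling genes in each library labelled Il17ra-/- (left, n = 5) and wild type (right, n = 4), with mean ± SD beside the points. For Ryr1 all 5 libraries labelled Il17ra-/- lie at 31 CPM or more and all 4 labelled wild type at 23.7 CPM or less; for Casq1 the lowest point of all is a library labelled Il17ra-/-.

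Ryr1, the release channel, had 35.0, 31, 40.5, 32.8 and 47.1 CPM in libraries labelled Il17ra-/- replicates 1 to 5, against 21.2, 10.4, 23.7 and 11.9 CPM in libraries labelled wild type replicates 1 to 4. The lowest library labelled Il17ra-/- lay above the highest labelled wild type, and within wild type replicates 2 and 4 were about level and below the other two. The means were 37.3 ± 6.53 in libraries labelled Il17ra-/- and 16.8 ± 6.58 CPM in libraries labelled wild type, a log2 fold change of 1.15 (SE 0.23, adjusted p = 0.0153, edgeR's quasi-likelihood test). The call held in all 19 alternative settings, with log2 fold changes of 0.98 to 1.36. Without wild type replicate 2, the library that stands apart, the change was 0.98 with an adjusted p of 0.0168.

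Casq1, a calcium-binding protein of the store, behaved otherwise. It had 9.34, 16.9, 29.1, 28.0 and 31.9 CPM in libraries labelled Il17ra-/-, against 24.6, 23.2, 18.6 and 13.3 CPM in libraries labelled wild type. Its lowest value was in Il17ra-/- replicate 1 and its highest in Il17ra-/- replicate 5, so the groups overlapped over the whole wild type range. The log2 fold change of 0.21 (SE 0.30, adjusted p = 0.779) was within its error. It was between 0.06, without wild type replicate 4, and 0.41, without Il17ra-/- replicate 1, when 1 library was left out. Trdn, or triadin, which anchors calsequestrin to the release channel, had 17.0, 19.6, 21.5, 24.9 and 19.3 CPM in libraries labelled Il17ra-/- and 19.3, 10.96, 17.1 and 10.9 CPM in libraries labelled wild type. Replicates 2 and 4 labelled wild type were below all others, while the other two fell among the libraries labelled Il17ra-/-. Its log2 fold change was 0.49 (SE 0.19, adjusted p = 0.219). Jsrp1, or JP-45, a junctional protein that binds the voltage sensor and calsequestrin, had 17.9, 14.2, 18.8, 11.6 and 18.2 CPM in libraries labelled Il17ra-/-. It had 12.0, 18.4, 8.05 and 5.14 CPM in libraries labelled wild type, and here wild type replicate 2 was the second highest of all 9 libraries. The difference of 0.57 on the log2 scale (SE 0.30, adjusted p = 0.360) did not pass the test. Without wild type replicate 2 it was 0.94 with an adjusted p of 0.0558, and without wild type replicate 4 it was 0.34.

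In the voltage sensor, Cacna1s, the pore-forming subunit of the dihydropyridine receptor, had 19.3, 20.2, 18.8, 24.6 and 14.2 CPM in libraries labelled Il17ra-/-, against 12.8, 2.62, 12.4 and 9.07 CPM in libraries labelled wild type. The groups did not overlap, and wild type replicate 2 was far below the other libraries, with 80 counts for the gene. The means were 19.4 ± 3.72 in libraries labelled Il17ra-/- and 9.22 ± 4.70 CPM in libraries labelled wild type, with a log2 fold change of 1.07 (SE 0.34, adjusted p = 0.122), which did not pass. Without wild type replicate 2 the change was smaller, 0.77, and its adjusted p was 0.0337 in edgeR's quasi-likelihood test. Leaving out Il17ra-/- replicate 1 as well gave 0.77 with an adjusted p of 0.0513. Cacnb1, the intracellular beta subunit that brings Cacna1s to the triad, had 14.6, 13.9, 17.4, 15.2 and 17.9 CPM in libraries labelled Il17ra-/- and 18.7, 9.05, 17.1 and 11.8 CPM in libraries labelled wild type. Its highest value was in wild type replicate 1, and its log2 fold change of 0.15 (SE 0.20, adjusted p = 0.755) was the smallest of the 10. Without wild type replicate 2 it was -0.00712, and without wild type replicate 1 it was 0.32.

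Cacng1, the gamma subunit, was the least counted of the 10 genes, with 3.54, 4.43, 3.45, 5.21 and 3.35 CPM in libraries labelled Il17ra-/-. It had 4.60, 2.49, 1.82 and 2.07 CPM in libraries labelled wild type, where replicate 1 exceeded all but 1 of the libraries labelled Il17ra-/-. Its log2 fold change was 0.54 (SE 0.33, adjusted p = 0.447), and 0.92 without wild type replicate 1 (adjusted p = 0.172). Stac3, an adaptor needed for the voltage sensor to reach the membrane and to couple to Ryr1, had 10.4, 14.7, 12.96, 11.7 and 16.5 CPM in libraries labelled Il17ra-/-. In libraries labelled wild type it had 13.9, 8.86, 9.25 and 3.13 CPM, with replicate 4 far below the others. Its log2 fold change of 0.59 (SE 0.31, adjusted p = 0.371) did not pass the test. It was 0.31 without wild type replicate 4 and 0.91 without wild type replicate 1, where it did not pass either.

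Neither junctophilin passed the test. Jph1, a junctophilin of skeletal muscle, had 11.9, 17.0, 14.7, 12.9 and 16.0 CPM in libraries labelled Il17ra-/- and 15.2, 5.51, 13.4 and 6.63 CPM in libraries labelled wild type. Wild type replicates 1 and 3 fell among the libraries labelled Il17ra-/-, and replicates 2 and 4 lay below them all, for a log2 fold change of 0.51 (SE 0.27, adjusted p = 0.375). That change was 0.77 without wild type replicate 1 and 0.31 without wild type replicate 2, and passed in neither case. Jph2, which is also the junctophilin of the heart, had 45.4, 45.1, 51.1, 42.6 and 47.7 CPM in libraries labelled Il17ra-/-, against 43.9, 35.3, 31.2 and 21.4 CPM in libraries labelled wild type. Only wild type replicate 1 reached the range of the libraries labelled Il17ra-/-. Its means were 46.4 ± 3.21 in libraries labelled Il17ra-/- and 33.0 ± 9.35 CPM in libraries labelled wild type, with a log2 fold change of 0.49 (SE 0.17, adjusted p = 0.153), and without wild type replicate 1 the change was 0.67 with an adjusted p of 0.0453.

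**Figure D2:**
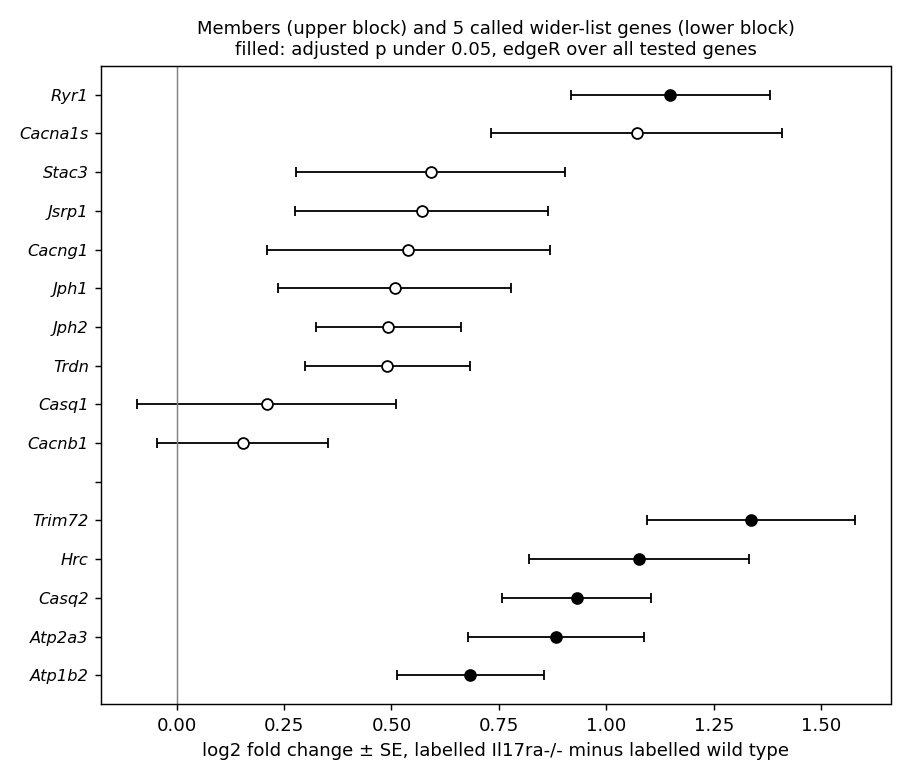
Log2 fold change ± SE (labelled Il17ra-/- minus labelled wild type, edgeR) of the 10 members in the upper block and of 5 of the 6 called genes of the wider calcium-handling lists in the lower block; filled points have an adjusted p under 0.05 over all tested genes. All 10 members lie right of 0 and Ryr1, at 1.15, is the filled one among them.

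Libraries labelled wild type varied more among themselves for most members. The coefficient of variation of CPM was 6.92% to 41.4% over libraries labelled Il17ra-/- and 25.7% to 52.6% over libraries labelled wild type, and it was larger in wild type for 9 of the 10 genes. Casq1 was the exception. The sum of the 10 genes was 184 to 232 CPM in libraries labelled Il17ra-/- and 95.3 to 186 CPM in libraries labelled wild type, so that wild type replicate 1, at 186 CPM, lay above Il17ra-/- replicate 1, at 184 CPM. Wild type replicates 2 and 4 held the lowest value of 4 members each. Wild type replicate 3 held that of Cacng1, and Il17ra-/- replicate 1 that of Casq1. The counts behind a single value were 65, for Cacng1, to 2370, for Jph2.

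Set per length, the order of the genes differed from the order of CPM. As CPM per kb of merged exon, the mean levels in libraries labelled Il17ra-/- were 12.1 ± 2.34 for Jsrp1, 11.8 ± 4.89 for Casq1 and 10.9 ± 0.754 for Jph2, which did not differ beyond their SDs. Stac3 followed at 5.21 ± 0.954. Cacnb1, Cacng1, Cacna1s and Jph1 lay between 3.48 and 2.90 per kb, each within the SD of its neighbour. Trdn had 2.19 ± 0.318 and Ryr1, whose merged exons cover 21838 bases, had the lowest level, 1.71 ± 0.299 per kb. In libraries labelled wild type Casq1 came first at 10.2 ± 2.63 and Ryr1 last at 0.769 ± 0.301 per kb. Cacna1s, at 1.41 ± 0.718 per kb in libraries labelled wild type, stood 9th in that group and 7th in libraries labelled Il17ra-/-. Between neighbours in the wild type order, only the step between Jph2, at 7.74 ± 2.20, and Stac3, at 3.46 ± 1.74, exceeded the larger SD. These levels rest on exons merged over all transcripts, which understates genes with long exons that are seldom used. The level of Cacna1s would also be understated if reads in exons shared with Gm37759 went uncounted, which was not tested.

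Fibre markers moved with these genes. Of the 11 genes listed as fast fibre markers, 2 rose, Acta1 and Myh2, with log2 fold changes of 0.94 and 1.95. The others did not pass, among them Myh4 at 0.33 and Actn3 at 0.13 (adjusted p = 0.415 and 0.743, edgeR's quasi-likelihood test). All 11 had a positive log2 fold change, with a median of 0.53, close to the members' 0.52. Acta1, skeletal alpha-actin, averaged 1643 ± 206 CPM in libraries labelled Il17ra-/- and 856 ± 298 CPM in libraries labelled wild type. Of the 7 slow fibre markers, 6 rose, and their sum was 188 to 429 CPM in libraries labelled Il17ra-/- and 36.2 to 101 CPM in libraries labelled wild type. Myh7, the slow myosin heavy chain, averaged 85.0 ± 22.1 in libraries labelled Il17ra-/- and 10.1 ± 8.15 CPM in libraries labelled wild type. Markers of other cells moved too: 4 of 6 smooth muscle and pericyte markers rose, with sums of 1419 to 2035 CPM in libraries labelled Il17ra-/- and 862 to 1195 CPM in libraries labelled wild type. Of 5 satellite cell markers 2 rose, with sums of 275 to 383 CPM in libraries labelled Il17ra-/- and 177 to 263 CPM in libraries labelled wild type. Of 4 cardiac muscle markers tested none was called in edgeR, DESeq2 or voom, 2 were positive, and the median was -0.23. The 2 positive ones were higher at an unadjusted p under 0.05. These were Ryr2, the cardiac release channel, at 0.881 ± 0.638 CPM in libraries labelled Il17ra-/- and 0.132 ± 0.143 CPM in libraries labelled wild type, and Cacna1c, the cardiac calcium channel subunit, at 22.1 ± 3.13 CPM in libraries labelled Il17ra-/- and 16.3 ± 2.88 CPM in libraries labelled wild type (adjusted p = 0.229 and 0.175). Myh6, the atrial myosin heavy chain, averaged 0.179 CPM in libraries labelled Il17ra-/- and 0.679 CPM in libraries labelled wild type. Tnni3 averaged 0.815 CPM in libraries labelled Il17ra-/- and 1.53 CPM in libraries labelled wild type. All 5 adipocyte markers had a positive log2 fold change, with a median of 1.81, and 1 rose, Adipoq, at 5.04 ± 2.80 CPM in libraries labelled Il17ra-/- and 1.36 ± 0.768 CPM in libraries labelled wild type (adjusted p = 0.0449). Of the 6 fibroblast markers 3 had a positive log2 fold change, and the median was -0.05. Among them 1 fell, Pi16, at 2704 ± 214 CPM in libraries labelled Il17ra-/- and 3973 ± 633 CPM in libraries labelled wild type (adjusted p = 0.0207). Dpt was also lower without overlap, at 3183 ± 326 CPM in libraries labelled Il17ra-/- and 4163 ± 492 CPM in libraries labelled wild type, but did not pass (adjusted p = 0.0933). The part of these markers in the members' differences was not tested.

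Each member was therefore also set against the mean log2(CPM + 0.5) of the fibre markers in the same library. The label difference in the fast marker mean was 0.74, above the median log2 fold change of 0.53 of the same markers. That mean was 7.84 ± 0.15 in libraries labelled Il17ra-/- and 7.10 ± 0.53 in libraries labelled wild type, where replicate 4 was lowest at 6.37 and replicate 1 highest at 7.65. Relative to it, the difference between labels was positive for 2 members, Cacna1s at 0.48 and Ryr1 at 0.46, and negative for the other 8, with a median of -0.17 and a lowest value of -0.62 for Casq1. The label groups overlapped for all 10 on this scale. For Ryr1 the values relative to the fast mean were -2.45, -2.83, -2.64, -2.86 and -2.31 in libraries labelled Il17ra-/-, against -3.21, -3.75, -2.60 and -2.73 in libraries labelled wild type. Wild type replicates 3 and 4 lay among the libraries labelled Il17ra-/-, and replicates 1 and 2 below them. Relative to the slow marker mean, 4.88 ± 0.44 in libraries labelled Il17ra-/- and 2.76 ± 0.48 in libraries labelled wild type, all 10 members were lower in the libraries labelled Il17ra-/-. Those differences were -0.90 for Cacna1s to -1.997 for Casq1, with a median of -1.55, and the groups did not overlap for 7 members. The slow mean includes Myh7b, at 0.601 CPM in libraries labelled Il17ra-/- and 0.407 CPM in libraries labelled wild type. The term of Myh7b therefore rests largely on the pseudocount.

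**Figure D3:**
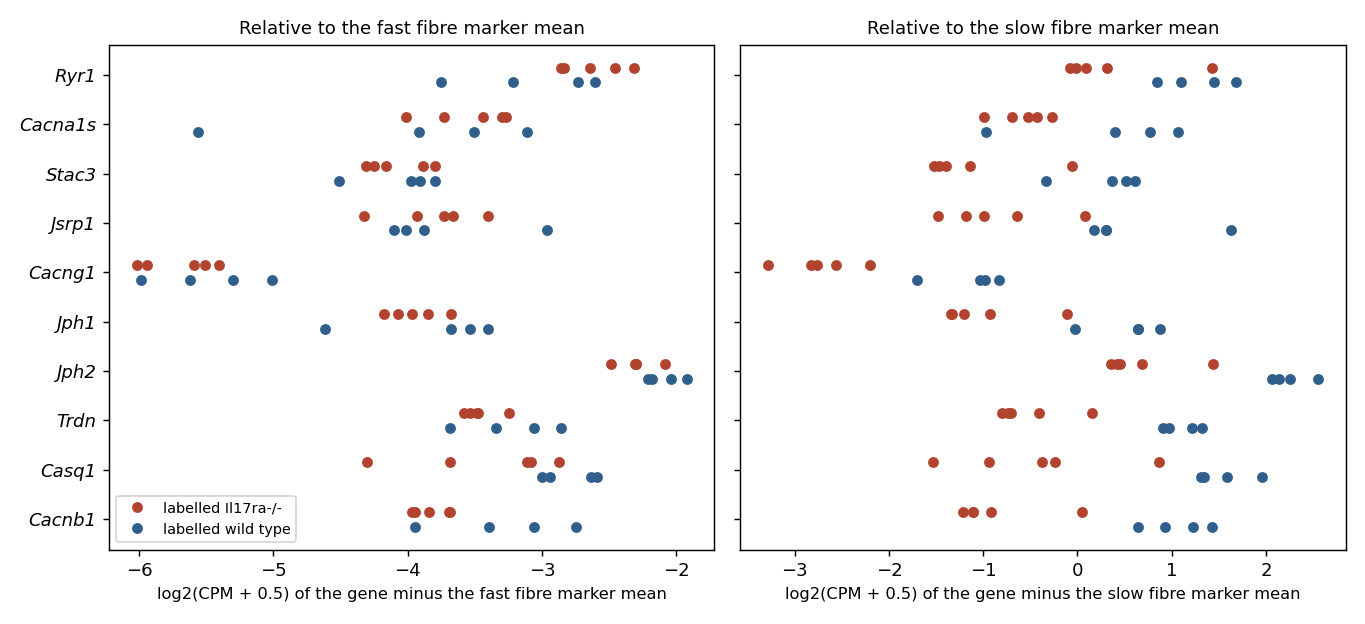
Log2(CPM + 0.5) of each member minus the mean of 11 fast fibre markers (left) or 7 slow fibre markers (right) in the same library, with libraries labelled Il17ra-/- (red, upper row of each gene) and wild type (blue, lower row). On the left the groups overlap for every member; on the right the libraries labelled Il17ra-/- lie lower on average for all 10.

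Genes that work beside these 10 were described from 6 wider lists of 73 genes, of which 71 were tested. Of these, 6 rose and none fell in edgeR, where 3.06% of all genes were called. At an unadjusted p under 0.05, 22 were higher and 6 lower, and DESeq2 called 11 higher and 3 lower. Leaving out 1 library gave 2 to 5 calls. The log2 fold change was positive for 43 genes, and the median was 0.13. Of the 15 other triad channel and store genes, Casq2 and Hrc rose and none fell in edgeR, 10 were positive, and the median was 0.12. DESeq2 called 2 of the list higher and 2 lower. The label groups did not overlap for 2 higher and 2 lower genes, as for 742 and 731 of all 16039. The list summed to 1277 to 1405 CPM in libraries labelled Il17ra-/- and 1422 to 1792 CPM in libraries labelled wild type. Casq2, a calsequestrin of slow and cardiac fibres, had 50.5, 32.4, 39.9, 56.3 and 48.3 CPM in libraries labelled Il17ra-/-, against 17.7, 26.2, 26.2 and 25.4 CPM in libraries labelled wild type. The groups did not overlap, and the log2 fold change was 0.93 (SE 0.17, adjusted p = 0.00914, edgeR's quasi-likelihood test). Hrc, the histidine-rich calcium-binding protein of the reticulum, averaged 13.3 ± 1.65 in libraries labelled Il17ra-/- and 6.30 ± 2.60 CPM in libraries labelled wild type, with a log2 fold change of 1.08 (SE 0.26, adjusted p = 0.0355). Its call was lost without any 1 of the 5 libraries labelled Il17ra-/- and without wild type replicate 2 or 4, at adjusted p-values of 0.0575 to 0.0981. Calm2, 1 of 3 calmodulin genes, averaged 253 ± 14.1 CPM in libraries labelled Il17ra-/- and 346 ± 61.8 CPM in libraries labelled wild type. It was lower without overlap but not called in edgeR (adjusted p = 0.0615). DESeq2 (adjusted p = 0.00782) and voom with quality weights (adjusted p = 0.0285) called it lower.

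Of the 10 genes for calcium reuptake and buffering, 1 rose, 7 were positive and the median was 0.29. The gene that rose was Atp2a3, a calcium pump of the SERCA family best known outside muscle fibres, with 20.7 ± 2.76 CPM in libraries labelled Il17ra-/- and 11.2 ± 3.77 CPM in libraries labelled wild type (log2 fold change 0.88, SE 0.21, adjusted p = 0.0327). That call was lost without Il17ra-/- replicate 1, 3, 4 or 5 and without wild type replicate 1, 3 or 4 (adjusted p = 0.0694 to 0.0900). The pumps best known from fibres did not pass. Atp2a1, of fast fibres, differed by 0.50 on the log2 scale (adjusted p = 0.283). Atp2a2, best known from slow fibres and the heart, differed by -0.06 (adjusted p = 0.861). Sln, or sarcolipin, an inhibitor of these pumps, averaged 4.39 ± 2.35 in libraries labelled Il17ra-/- and 0.977 ± 0.729 CPM in libraries labelled wild type, and its log2 fold change of 2.17 (SE 0.55) had an adjusted p of 0.0508. Srl, or sarcalumenin, a calcium-binding protein of the reticulum, averaged 35.2 ± 6.46 in libraries labelled Il17ra-/- and 18.8 ± 7.40 CPM in libraries labelled wild type and had an adjusted p of 0.0531.

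Among 11 genes of transverse tubule formation and membrane repair, 2 rose, Trim72 among them, 8 were positive, and the median was 0.48. Trim72, or MG53, a membrane repair protein of muscle, had 14.1, 13.5, 14.5, 14.3 and 9.44 CPM in libraries labelled Il17ra-/-, against 7.59, 5.54, 4.56 and 3.18 CPM in libraries labelled wild type. The groups did not overlap, the log2 fold change was 1.34 (SE 0.24, adjusted p = 0.00757), and it passed in all 19 alternatives. Ank1, whose small muscle form lies in the reticulum membrane, differed by 0.48 on the log2 scale (adjusted p = 0.118). Of 11 tested sarcolemma excitability genes, 9 were positive and 1 rose, Atp1b2, a beta subunit of the sodium pump, at 58.5 ± 7.34 in libraries labelled Il17ra-/- and 36.4 ± 10.4 CPM in libraries labelled wild type with overlapping groups (log2 fold change 0.68, SE 0.17, adjusted p = 0.0473). The call of Atp1b2 was lost with upper quartile scaling (adjusted p = 0.0558), without any 1 of the libraries labelled Il17ra-/- and without wild type replicate 1, 3 or 4 (adjusted p = 0.0573 to 0.123). Kcnj2, an inward rectifier potassium channel, had an adjusted p of 0.0680.

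Of the 13 genes of store-operated calcium entry and mitochondrial uptake none was called in edgeR, DESeq2 or voom, 1 had an unadjusted p under 0.05, 4 were positive and the median was -0.09. The smallest p-values were those of Homer2, a scaffold protein, at 0.04997 unadjusted, Mcu, the mitochondrial calcium uniporter, at 0.0947, and Stim2, a calcium sensor of the store, at 0.204. Of the 11 genes of calcium-calmodulin signalling none was called in edgeR or voom and 1 in DESeq2, Rcan1, while 4 had an unadjusted p under 0.05, 5 were positive and the median was -0.03. Rcan1, an inhibitor of calcineurin, averaged 87.2 ± 6.85 CPM in libraries labelled Il17ra-/- and 118 ± 24.6 CPM in libraries labelled wild type, with a log2 fold change of -0.44 (SE 0.13, adjusted p = 0.0954). The calcineurin subunit Ppp3ca and the calcineurin target Nfatc2 had log2 fold changes of -0.25 and 0.56 (adjusted p = 0.239 and 0.228).

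Ratios between partner genes were taken within each library as log2 of counts per kb, which leaves out the library scaling. Of 6 ratios, none passed an exact two-sided permutation test over all assignments of the labels to libraries after adjustment over the 6, and the smallest p this design allows is 0.00794. The Atp2a2 to Atp2a1 ratio was -0.56 ± 0.26 in libraries labelled Il17ra-/- and 0.05 ± 0.43 in libraries labelled wild type (exact permutation p = 0.0317, adjusted 0.190). Atp2a2 averaged 372 CPM in libraries labelled wild type, where the slow fibre marker Myh7 averaged 10.1 CPM. Which cells the Atp2a2 reads came from was not tested, so this ratio is not read as slow over fast fibres. The Casq2 to Casq1 ratio was 1.95, 0.45, -0.03, 0.52 and 0.11 in libraries labelled Il17ra-/-, against -0.96, -0.32, 0.00 and 0.45 in libraries labelled wild type. Il17ra-/- replicate 1, in which Casq1 was lowest, stood far above the rest, and the groups overlapped (exact permutation p = 0.143, adjusted 0.429). Casq2 averaged 23.9 CPM in libraries labelled wild type, also above Myh7. Which cells its reads came from was not tested, so the Casq2 to Casq1 ratio is not read as slow over fast fibres either. The Cacna1s to Ryr1 ratio, the sensor over the channel it opens, was 0.79 ± 0.51 in libraries labelled Il17ra-/- and 0.73 ± 0.69 in libraries labelled wild type, a difference of 0.06 on the log2 scale that was well within the spread (exact permutation p = 0.865, adjusted 0.865). The Stac3 to Cacna1s ratio was 0.82 ± 0.50 in libraries labelled Il17ra-/- and 1.35 ± 1.37 in libraries labelled wild type, with 3.11 in wild type replicate 2, where Cacna1s was lowest (exact permutation p = 0.460, adjusted 0.865). The Jph2 to Jph1 ratio was 1.92 ± 0.20 in libraries labelled Il17ra-/- and 2.01 ± 0.63 in libraries labelled wild type (exact permutation p = 0.841, adjusted 0.865). Jph2 had the higher level per kb in every library, with ratios of 1.45 to 2.91. Which cells the Jph2 reads came from was not tested. Ryr3, the minor release channel, was at 0.325 to 1.83 CPM in libraries labelled Il17ra-/- and at 0 to 1.68 CPM in libraries labelled wild type, where replicate 2 had no count. Its ratio to Ryr1 rests on the pseudocount in that library (exact permutation p = 0.635, adjusted 0.865).

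**Figure D4:**
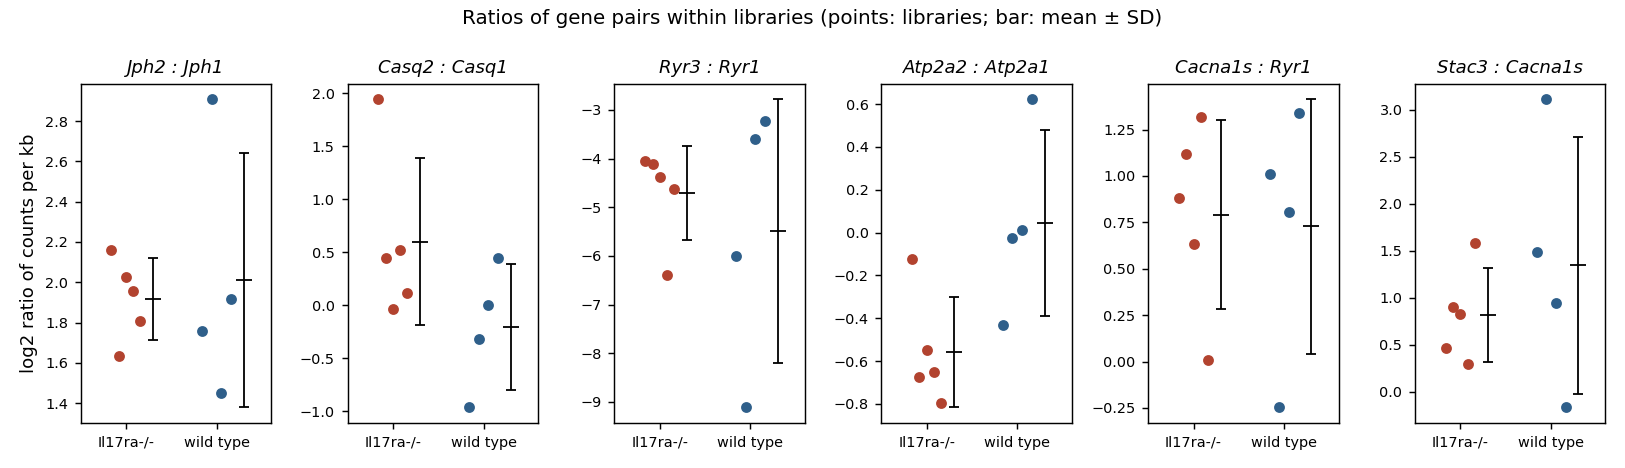
Log2 ratio of counts per kb of 6 gene pairs in each library labelled Il17ra-/- (left, n = 5) and wild type (right, n = 4), with mean ± SD beside the points. The groups overlap in every panel, and the single high point of Casq2 to Casq1, at 1.95, is Il17ra-/- replicate 1.

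Across the 9 libraries, log2(CPM + 0.5) of the other members followed that of Ryr1 to different degrees. Pearson's r was 0.86 for Jph1, 0.85 for Trdn, 0.82 for Cacna1s, 0.77 for Jph2, 0.75 for Cacnb1 and 0.72 for Stac3. It was 0.53 for Cacng1, 0.49 for Jsrp1 and 0.25 for Casq1. The points share libraries, scaling and the difference between labels, so these values describe the 9 libraries only. The 5 tested genes outside the members that were most like Ryr1 on this measure were Dusp27, Prob1, Ddit4l, Ppp1r3a and Zfp862-ps, with r of 0.96 to 0.97. Among them Ppp1r3a, the glycogen-targeting subunit of protein phosphatase 1 in muscle, passed the test, at 18.2 ± 2.70 CPM in libraries labelled Il17ra-/- and 6.70 ± 2.72 CPM in libraries labelled wild type (log2 fold change 1.44, adjusted p = 0.00727).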

How the data were processed

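Per the file headers, the deposited values are counts per gene from featureCounts 1.6.0: exons summed by gene, read pairs, no strand, no option for multi-mapping reads, GENCODE M21 (GRCm38). Alignment was with STAR, per the submitters' processing notes, in a version not given in the sources used here. Per the labels' protocols, libraries were TruSeq v2, a kit that does not mark strand. All 55536 identifiers matched the annotation.

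The deposited counts were filtered with filterByExpr, which left 16039 genes, scaled by TMM and compared with edgeR 4.0.16 in R 4.3.3 (quasi-likelihood test, two-sided, label as the only term, all 9 libraries). Calls used a threshold of 0.05 on p-values adjusted by Benjamini-Hochberg over all tested genes. The SE is the size of the log2 fold change divided by the square root of F. The fit was checked on simulated data, where it recovered 12.3% of 1.5-fold changes, 75.8% of 2-fold changes and 79.4% of 4-fold changes. A gene that did not pass is therefore not shown to be unchanged. Ratios used a pseudocount of 0.5. A count of 3 was 0.0646 to 0.0959 CPM. No 2 libraries were identical.

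The members and gene lists were chosen with earlier results of these data known. Named genes were the members, Il17ra, called genes of the wider lists or else up to 3 of smallest p in a list, ratio partners and the 5 genes most like Ryr1; a few further genes of small p, and single genes of the marker lists, were named after their values were seen. Alternatives were 3 other scalings, 2 other filters, DESeq2 1.42.0, limma 3.58.1 voom with and without quality weights, a replicate block, and leaving out libraries; leaving out Il17ra-/- replicate 1 and wild type replicate 2 together was added after seeing the data. Results of some genes are not reported here.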

Additional observations from a re-analysis of the deposited data

Results flagged for a closer look

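Within groups of 4 or 5 libraries, 9 of 74 groups examined held a library far from its own group, a gap that chance gives in about 1 of 20 groups. None was a member's own CPM. In Il17ra-/- replicate 1 the Casq2 to Casq1 log2 ratio was 1.95, where the other 4 libraries with that label lay between -0.03 and 0.52. Nfatc2 was at 22.3 CPM in the same library, where the others lay between 12.6 and 14.1 CPM. In Il17ra-/- replicate 3 Kcnj2 was at 12.6 CPM, against 8.89 to 9.49 CPM in the others. Ryr3 was at 0.325 CPM in Il17ra-/- replicate 4, where the others lay between 1.55 and 1.83 CPM, and its log2 ratio to Ryr1 there was -6.40, where the others lay between -4.62 and -4.04. Trim72 was at 9.44 CPM in Il17ra-/- replicate 5, where the others lay between 13.5 and 14.5 CPM, still above every library labelled wild type. Casq2 was at 17.7 CPM in wild type replicate 1, where the others with that label lay between 25.4 and 26.2 CPM. In wild type replicate 2, Calm2 was at 437 CPM, against 306 to 326 CPM in the others, and Rcan1 at 155 CPM, against 103 to 111 CPM.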

How the results depend on the processing

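Genes called numbered 491, with 1017 in DESeq2, 880 in voom with quality weights and 275 to 567 with 1 library left out. Of the members 1 was called, Ryr1, in every setting; Cacna1s joined it with no filter and in DESeq2 (2 called), and Cacna1s, Jph2 and Jsrp1 in voom with quality weights (4 called). Leaving out 1 library gave 1 to 2. Of the wider lists 6 genes were called, with 14 in DESeq2, 11 in voom with quality weights and 2 to 5 with 1 library left out: 3 each without Il17ra-/- replicates 1, 2 or 5 or wild type replicate 4, and 2 without Il17ra-/- replicates 3 or 4. Trim72 kept its call in all 19 alternatives, Casq2 in 18, and Hrc, Atp2a3 and Atp1b2 in 9 to 11. The replicate block, over replicates 1 to 4, gave 366 genes, 1 member and 2 wider genes. Deviations of same-numbered libraries from their group means correlated at 0.0327 to 0.0661. For wild type replicates 1, 2 and 3, but not 4, the library labelled Il17ra-/- that correlated highest had the same number. These correlations were low, and the numbers were not taken as pairs. Of 190 member log2 fold changes over the alternatives 188 were positive, the exceptions being Cacnb1 (-0.00712 to 0.318 with 1 library left out, lowest without wild type replicate 2) and Casq1 (-0.0147 under the block). Atp2a2 turned to 0.00537 with library totals and ranged over -0.142 to 0.0257 with 1 library left out. With 1 library left out, label differences in the log2 ratio were -0.28 to 0.21 for Jph2 to Jph1, -0.43 to 1.53 for Ryr3 to Ryr1, -0.26 to 0.27 for Cacna1s to Ryr1 and -1.03 to 0.0614 for Stac3 to Cacna1s; the cause of these changes was not tested. Few libraries, the spread among those labelled wild type, and Ryr3's counts near 0 limit precision.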
